A study of Mus musculus with 18 samples.

Results

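RNA-seq values of 10 homeobox genes were examined in whole mouse embryos at E11.5: the Distal-less genes Dlx1, Dlx2, Dlx3, Dlx4, Dlx5 and Dlx6, the muscle segment homeobox genes Msx1 and Msx2, and the Aristaless-like genes Alx1 and Alx4. They were taken by their symbols from the deposited table, where each has 1 row of 34244 named genes, and all 10 passed the filter for testing (at least 0.1 FPKM in at least 3 of 9 embryos), as did 19397 genes in all. The study compared 3 genotypes on the FVB background, with 3 embryos of each and 1 library per embryo. Dnmt3b+/+ embryos have the wild-type DNA methyltransferase. The Dnmt3b-/- embryos carry a conventional knockout allele derived from a loxP-flanked gene, which is lethal at about this stage. The Dnmt3bCI/CI embryos carry substitutions of a proline and a cysteine in the catalytic site, made by CRISPR/Cas9 at the endogenous gene, so that the protein is present but catalytically inactive, and these mice live to adulthood. A whole embryo is a mixture of all its tissues, so fewer cells that express a gene and less RNA per cell cannot be told apart.

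Dlx, Msx and Alx proteins are transcription factors that bind DNA through a homeodomain, usually at sites with a TAAT core. Mammalian Dlx genes lie in convergently transcribed pairs, and a pair shares enhancers and much of its pattern. In the pharyngeal arches, nested Dlx expression in the neural crest mesenchyme sets upper against lower jaw identity, with Dlx5 and Dlx6 acting in the lower jaw downstream of endothelin signalling, while Dlx1 and Dlx2 also drive the differentiation of GABAergic interneurons in the ventral forebrain. Dlx3 and Dlx4 are active in ectoderm, branchial arches and placenta. Msx1 and Msx2 respond to BMP signals in facial prominences, tooth germs, limb buds and the roof of the neural tube, and Alx1 and Alx4 pattern the frontonasal mesenchyme.

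Positions of the genes are given in GRCm38 (mm10). The pairs are Dlx1 at chr2:71528113-71533981 (plus strand) with Dlx2 at chr2:71543408-71546754 (minus), Dlx3 at chr11:95120119-95125296 (plus) with Dlx4 at chr11:95140447-95146263 (minus), and Dlx6 at chr6:6863334-6868568 (plus) with Dlx5 at chr6:6877805-6882085 (minus). Each pair is convergent, with 9426, 15150 and 9236 bases between its genes. Msx1 lies at chr5:37820485-37824583 (minus), Msx2 at chr13:53466884-53473074 (minus), Alx1 at chr10:102998707-103030215 (minus) and Alx4 at chr2:93642384-93681339 (plus), all by GENCODE M21.

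Promoter windows from RefSeq (GRCm38.p6, C57BL/6J), from 250 bases before to 50 bases after the annotated start, were held for 4 of the genes. All 4 are shown. Of these genes, Msx1 and Msx2 kept an adjusted p under 0.05 in 1 comparison when any single embryo was left out. The pair Dlx1 and Dlx2 did not differ at the threshold. The windows are written 5′ to 3′ on the strand of the gene. Capitals mark CpG dinucleotides, the sites that DNA methyltransferases act on.
Msx1 promoter, chr5:37824536-37824835, minus strand: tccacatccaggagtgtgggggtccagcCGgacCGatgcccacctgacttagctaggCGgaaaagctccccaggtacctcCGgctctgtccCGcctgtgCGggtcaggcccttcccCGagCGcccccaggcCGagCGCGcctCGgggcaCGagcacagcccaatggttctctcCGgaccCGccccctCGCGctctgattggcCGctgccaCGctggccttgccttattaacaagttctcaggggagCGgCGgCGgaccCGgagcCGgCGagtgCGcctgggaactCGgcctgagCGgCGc
Msx2 promoter, chr13:53472731-53473030, minus strand: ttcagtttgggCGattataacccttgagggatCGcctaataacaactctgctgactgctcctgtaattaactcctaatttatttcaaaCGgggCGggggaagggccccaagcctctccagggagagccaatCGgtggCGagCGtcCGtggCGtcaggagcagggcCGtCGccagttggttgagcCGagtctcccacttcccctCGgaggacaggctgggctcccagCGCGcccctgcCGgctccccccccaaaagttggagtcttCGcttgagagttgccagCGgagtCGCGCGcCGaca
Dlx1 promoter, chr2:71529195-71529494, plus strand: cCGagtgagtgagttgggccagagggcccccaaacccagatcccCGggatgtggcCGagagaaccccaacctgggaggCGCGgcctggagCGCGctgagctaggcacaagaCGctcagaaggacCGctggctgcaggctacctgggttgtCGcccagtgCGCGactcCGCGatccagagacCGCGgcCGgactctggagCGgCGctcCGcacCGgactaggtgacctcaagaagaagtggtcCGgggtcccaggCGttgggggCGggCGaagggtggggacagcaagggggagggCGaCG
Dlx2 promoter, chr2:71546705-71547004, minus strand: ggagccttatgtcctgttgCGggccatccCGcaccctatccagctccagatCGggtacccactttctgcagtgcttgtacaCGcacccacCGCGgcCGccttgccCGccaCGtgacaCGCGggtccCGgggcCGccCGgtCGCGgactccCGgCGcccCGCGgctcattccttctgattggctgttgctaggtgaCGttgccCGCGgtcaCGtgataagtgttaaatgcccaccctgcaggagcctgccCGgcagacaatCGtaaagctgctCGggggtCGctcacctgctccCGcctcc
These windows hold 29, 22, 27 and 29 CpGs in the order shown, against a median of 7 over 32851 windows of the same length. Their CpG observed-to-expected ratios were 0.794, 0.789, 0.767 and 0.898, against a median of 0.384, so each of the 4 is CpG-rich. The TATA motif TATAAA, on either strand, was in none of the 4 and in 13.6% of all windows. TAATTA, a palindrome of the homeodomain core, was found once in the Msx2 window, in none of the others and in 5.29% of all windows. CCAAT, on either strand, was found in the windows of Dlx2 (1 match), Msx1 (2) and Msx2 (1) and in 37.4% of all windows, and CACGTG in that of Dlx2 (2 matches) and in 7.15%. Methylation of these windows was not analysed here, and the Dlx1 window lies inside the longer gene model of GENCODE.

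Before the results, several libraries stand apart. The total behind the FPKM values ranged from 38451729 to 49808777 reads per library, and for 91.9% of the genes the values resolve into whole reads. Dnmt3b itself ranged from 1.62 to 2.25 FPKM in Dnmt3b+/+ and from 2.45 to 3.33 FPKM where the label is Dnmt3b-/-, a value summed over the whole gene that does not check the deleted part, so these embryos are named by their label. Among marker lists of 7 genes each, the summed level of fetal liver markers was lowest in Dnmt3b+/+ embryo 2, at 35.8 FPKM. Alb was at 0.103 FPKM there, against 42.1 to 59.9 FPKM in Dnmt3bCI/CI. Ttr, of the same list, was higher there than in any other embryo, at 35.5 FPKM, nearly all of that sum. The summed level of heart markers was lowest in Dnmt3b+/+ embryo 1. Nppa was at 0.104 FPKM there and at 0.210 FPKM in Dnmt3bCI/CI embryo 3, against 38.7 FPKM in Dnmt3b+/+ embryo 2. Of a list of 15 ventral forebrain genes, Six3 was at 0.0382 FPKM in Dnmt3bCI/CI embryo 2, against 0.986 to 3.51 FPKM in the other 8 embryos. The part of these differences in the results was not tested. The labels give the number of an embryo only as a name within its genotype.

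In Dnmt3b+/+ embryos, where FPKM accounts for gene length, Msx1 had the highest level, at 13.9 ± 2.30 FPKM (mean ± SD, n = 3 here and below). It was followed by Dlx2 at 7.78 ± 1.27, Dlx1 at 6.73 ± 1.71 and Alx4 at 5.69 ± 1.18 FPKM, and the ranges of these 3 genes overlapped with those of their neighbours among them, while Msx1 lay above all of them. Dlx5 came next at 4.18 ± 0.404 FPKM, then Msx2 at 2.97 ± 0.342 and Dlx6 at 2.34 ± 0.302 FPKM, and these 3 did not overlap with one another or with Alx4. Alx1 at 1.82 ± 1.09 and Dlx3 at 1.65 ± 0.0913 FPKM overlapped, and Alx1 also overlapped Dlx6 and Msx2. Dlx4 stood far below at 0.121 ± 0.0219 FPKM, or 14, 22 and 17 reads. Msx1 remained the highest and Dlx4 the lowest of the 10 in both other genotypes, each apart from its neighbour. Between them, genes next to each other in rank overlapped.

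**Figure D1:**
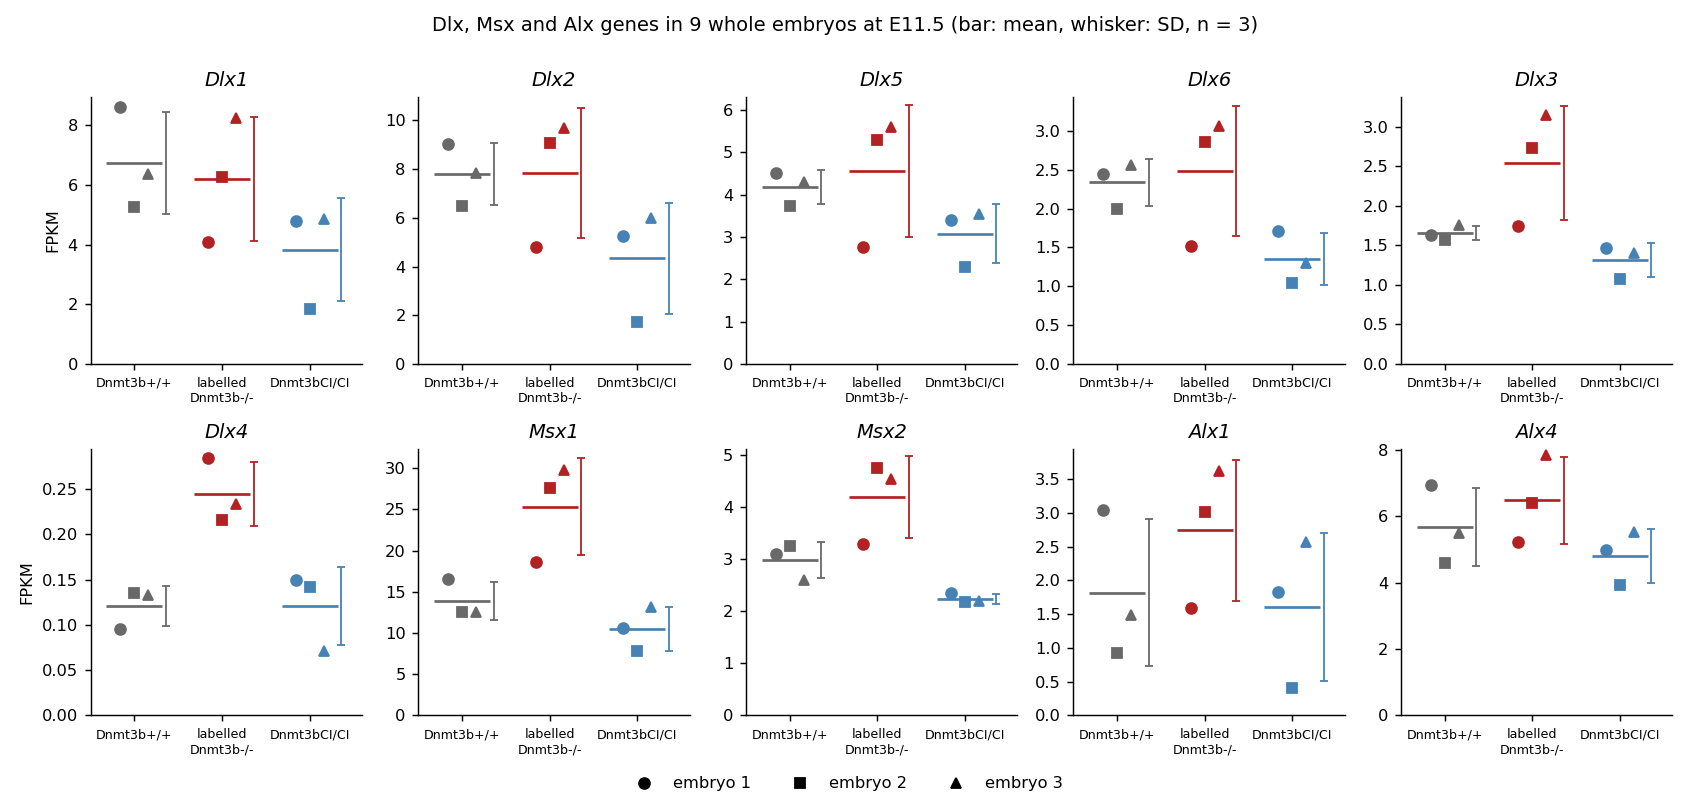
FPKM of each of the 10 genes (vertical axes from 0, each with its own scale) in 3 embryos of each genotype. The mean is a bar and the SD a whisker. Marker shapes are embryo numbers, which the labels do not link across genotypes. The embryos labelled Dnmt3b-/- sit above both other genotypes without overlap for Msx1, Msx2 and Dlx4, and Dnmt3bCI/CI embryo 2 is the lowest point in 9 of the 10 panels.

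The genes varied together between embryos of the same genotype. Dnmt3bCI/CI embryo 2 had the lowest level of all 9 embryos for 9 of the 10 genes, with Dlx4 as the exception. Against the Dnmt3b+/+ mean, its log2 level was −2.17 for Dlx2, −2.15 for Alx1 and −1.87 for Dlx1, but only −0.45 for Msx2 and −0.53 for Alx4. Of the embryos labelled Dnmt3b-/-, number 1 was the lowest for 9 of the 10 genes and number 3 was the highest of its genotype for 8. Within Dnmt3b+/+, number 2 was the lowest for 7 genes. Alx1 had the widest range over the 9 embryos, 8.84-fold, and Alx4 the narrowest, 1.99-fold.

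**Figure D2:**
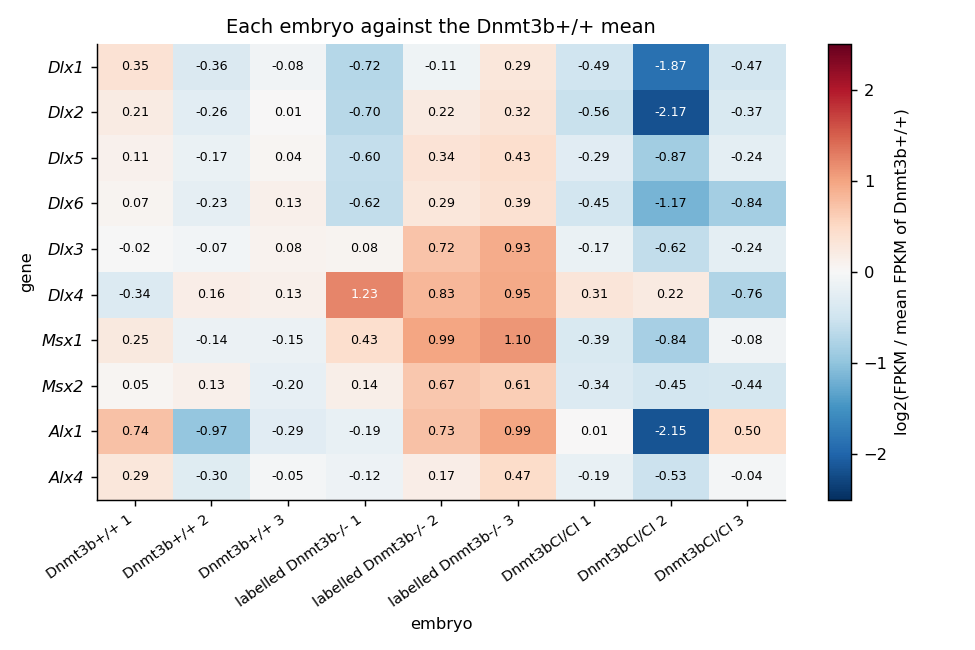
Heat map of log2(FPKM divided by the mean FPKM of Dnmt3b+/+), with genes in rows, the 9 embryos in columns and the value printed in each cell (red higher, blue lower). Values for Dnmt3bCI/CI embryo 2 run from −2.17 (Dlx2) to 0.22 (Dlx4), and embryos 2 and 3 labelled Dnmt3b-/- are above 0 for every gene except Dlx1 in embryo 2, at −0.11.

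The comparison of embryos labelled Dnmt3b-/- with Dnmt3b+/+ asks which genes respond to loss of the protein. By limma, 4 of the 10 (Msx1, Dlx4, Msx2 and Dlx3) were higher at an unadjusted p under 0.05. Of all tested genes, 14.6% were higher and 25.4% lower by that rule. Msx1, Dlx4 and Msx2 were higher at an adjusted p under 0.05 by limma. With a 2-fold change required as well, 0 of the 10 passed by limma and 1, Dlx4, by limma voom on whole reads. Among all 19397 tested genes, 9.41% were higher and 16.4% lower by the adjusted p alone, and 4.45% passed with a 2-fold change (1.07% higher, 3.38% lower; 208 and 655 genes, or 272 and 392 after quantile normalization). By the adjusted p alone 1826 genes were higher and 3175 lower, or 2236 and 2044 after quantile normalization, so the background shares moved with the scaling. The median log2 fold change was 0.33 over the 10 genes and −0.07 over all tested genes, and quantile normalization moved the latter to 0.03. For Msx1, Msx2 and Dlx4, 3 of the 10 genes, the lowest embryo labelled Dnmt3b-/- exceeded the highest Dnmt3b+/+ embryo, a pattern held by 15.1% of tested genes.

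Msx1, required for palate and tooth development, stood at 16.5, 12.6 and 12.5 FPKM in Dnmt3b+/+ embryos 1 to 3, at 18.7, 27.6 and 29.7 FPKM in those labelled Dnmt3b-/-, and at 10.6, 7.78 and 13.1 FPKM in Dnmt3bCI/CI. The lowest embryo labelled Dnmt3b-/- was thus close to the highest Dnmt3b+/+ embryo, and the other two were well above it. The log2 fold change was 0.85 ± 0.23 (SE), with an adjusted p of 0.0281 by limma. It stayed between 0.72 and 1.05 when any embryo was left out, but the adjusted p exceeded 0.05, reaching 0.0937, without Dnmt3b+/+ embryo 2 or 3 or without embryo 2 or 3 labelled Dnmt3b-/-.

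Msx2, which acts in skull sutures and skin appendages, was measured at 3.09, 3.25 and 2.59 FPKM in Dnmt3b+/+, at 3.28, 4.74 and 4.53 FPKM in embryos labelled Dnmt3b-/-, and at 2.34, 2.17 and 2.19 FPKM in Dnmt3bCI/CI. The 3 genotypes occupied separate ranges, although embryo 1 labelled Dnmt3b-/- exceeded the highest Dnmt3b+/+ embryo by little. Its log2 fold change between those 2 genotypes was 0.47 ± 0.14 (SE, adjusted p = 0.0425, limma). The adjusted p exceeded 0.05 in 8 of the 9 fits that left out an embryo, reaching 0.141. It fell to 0.0035 only without embryo 1 labelled Dnmt3b-/-. Over all 9 fits the log2 fold change ran from 0.37 to 0.63.

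Dlx4 gave few reads, 14, 22 and 17 in Dnmt3b+/+, 37, 30 and 31 in embryos labelled Dnmt3b-/- and 22, 20 and 9 in Dnmt3bCI/CI. Summed over each genotype these are 53, 98 and 51 reads, with exact Poisson 95% intervals of 39.7 to 69.3, 79.6 to 119 and 38.0 to 67.1 reads, which cover counting error only. In FPKM, embryos labelled Dnmt3b-/- had 0.284, 0.216 and 0.234, above the 0.0959, 0.135 and 0.133 of Dnmt3b+/+ without overlap. The log2 fold change was 0.64 ± 0.18 (SE, adjusted p = 0.0309, limma) on the log2(FPKM + 0.1) scale, which understates changes at such low levels, and the ratio of the mean FPKM values was 2.02. Leaving out any of the 6 embryos compared raised the adjusted p above 0.05, up to 0.0804, with log2 fold changes from 0.55 to 0.70.

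Dlx3, a regulator of ectodermal appendages and placenta and the partner of Dlx4, had 1.63, 1.57 and 1.75 FPKM in Dnmt3b+/+ and 1.74, 2.72 and 3.15 FPKM in embryos labelled Dnmt3b-/-. Embryo 1 labelled Dnmt3b-/- lay inside the narrow Dnmt3b+/+ range and the other two well above it. The log2 fold change was 0.55 ± 0.20 (SE) and did not pass (adjusted p = 0.0777, limma), except without embryo 1 labelled Dnmt3b-/-, where it was 0.79 with an adjusted p of 0.0048, or after quantile normalization (adjusted p = 0.0475).

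The forebrain and jaw genes Dlx1, Dlx2, Dlx5 and Dlx6 showed no difference at the threshold between embryos labelled Dnmt3b-/- and Dnmt3b+/+. Dlx1 had 8.60, 5.24 and 6.36 FPKM in Dnmt3b+/+ and 4.10, 6.26 and 8.23 FPKM in embryos labelled Dnmt3b-/-. Dlx2 had 9.03, 6.48 and 7.83 FPKM against 4.80, 9.06 and 9.70 FPKM. For both genes the embryos labelled Dnmt3b-/- spread from below to about the top of the Dnmt3b+/+ range. Dlx5 went from 4.50, 3.73 and 4.30 FPKM in Dnmt3b+/+ to 2.76, 5.29 and 5.61 FPKM, and Dlx6 from 2.45, 2.00 and 2.57 FPKM to 1.52, 2.86 and 3.06 FPKM. In this pair embryo 1 labelled Dnmt3b-/- was below every Dnmt3b+/+ embryo and the other two were above every one. The fitted log2 fold changes were −0.14, −0.04, 0.06 and 0.03 in the order Dlx1, Dlx2, Dlx5 and Dlx6, and each changed sign when certain single embryos were left out, that of Dlx2 also under median-of-ratios scaling. The 95% interval for Dlx2, the widest, ran from −1.06 to 0.98, and that for Dlx5 from −0.55 to 0.67, so a 2-fold decrease lies inside the interval for Dlx2 and outside that for Dlx5.

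Alx1, needed for frontonasal and eye development, had 3.04, 0.928 and 1.49 FPKM in Dnmt3b+/+, 1.59, 3.00 and 3.62 FPKM in embryos labelled Dnmt3b-/-, and 1.83, 0.409 and 2.57 FPKM in Dnmt3bCI/CI. The 3 ranges overlapped, and the log2 fold change against Dnmt3b+/+ of 0.64 carried an SE of 0.64 (adjusted p = 0.491, limma). Alx4, which also acts in the anterior limb bud, had 6.94, 4.61 and 5.51 FPKM in Dnmt3b+/+, 5.22, 6.40 and 7.85 FPKM in embryos labelled Dnmt3b-/-, and 4.98, 3.94 and 5.53 FPKM in Dnmt3bCI/CI. All 3 ranges overlapped, and the log2 fold change was 0.19 ± 0.19 (SE, adjusted p = 0.508, limma).

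Dnmt3bCI/CI embryos were then set against Dnmt3b+/+, a comparison that keeps the protein and removes its catalysis. None of the 10 genes passed the adjusted p by limma or by limma voom on whole reads, and 2 of them, Dlx6 and Msx2, had an unadjusted p under 0.05, both lower, as did 2.55% of tested genes on the lower side. In this contrast 0.129% of all tested genes were higher and 0.0155% lower by the adjusted p alone. All 10 log2 fold changes were below 0, from −0.995 to −0.02 with a median of −0.41, while 44.3% of tested genes were below 0 and their median was 0.02. For 6 of the 10 genes, Dlx1, Dlx2, Dlx3, Dlx5, Dlx6 and Msx2, all Dnmt3bCI/CI embryos lay below all Dnmt3b+/+ embryos, against 5.65% of tested genes. Signs changed for Dlx4 (without Dnmt3b+/+ embryo 2 or 3 or Dnmt3bCI/CI embryo 3) and Alx1 (without Dnmt3b+/+ embryo 1 or Dnmt3bCI/CI embryo 2), and under no change of scaling.

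With all 9 embryos in the fit, the forebrain pair had the lowest log2 fold changes of this contrast. Dlx1 was at 4.78, 1.84 and 4.87 FPKM and Dlx2 at 5.27, 1.73 and 6.01 FPKM in Dnmt3bCI/CI. Embryo 2 was far below the others in both, yet embryos 1 and 3 were also under the lowest Dnmt3b+/+ value of each gene. The log2 fold changes were −0.89 ± 0.39 and −0.995 ± 0.45 (SE, adjusted p = 0.949 for both, limma), and −0.44 and −0.45 without Dnmt3bCI/CI embryo 2, where Dlx6, at −0.61, was lower than both. Dlx5 was at 3.42, 2.29 and 3.54 FPKM, a log2 fold change of −0.45 ± 0.27 (SE), or −0.25 without embryo 2. Dlx6 was at 1.71, 1.04 and 1.30 FPKM, a log2 fold change of −0.77 ± 0.27 (SE, adjusted p = 0.864, limma). For Dlx3, at 1.47, 1.07 and 1.40 FPKM, and Msx2 the log2 fold changes were −0.32 ± 0.20 and −0.39 ± 0.14 (SE), and that of Dlx3 was −0.19 without embryo 2.

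Summed levels of genes of the tissues that hold these genes are given beside this contrast, in which 0 genes of the forebrain, limb and neural crest lists passed the adjusted p by limma. The summed level of 15 ventral forebrain genes was 73.5 to 82.5 FPKM in Dnmt3b+/+, 67.8 to 70.8 in embryos labelled Dnmt3b-/- and 53.4 to 69.4 in Dnmt3bCI/CI, where embryo 2 was the lowest, and the median log2 fold change of the list was −0.54. The sum over 14 genes of the apical ectodermal ridge and limb bud was 44.0 to 46.1 FPKM in Dnmt3b+/+ and 28.5 to 34.7 in Dnmt3bCI/CI, with a median log2 fold change of −0.10 over the 13 tested. Lhx2 made up most of that gap, at 15.7, 18.4 and 16.6 FPKM in Dnmt3b+/+ and 6.77, 2.81 and 10.2 FPKM in Dnmt3bCI/CI. Without Lhx2 the sums were 27.4 to 28.3 and 24.2 to 25.7 FPKM. Its lowest level was in Dnmt3bCI/CI embryo 2, where the forebrain gene Six3 was near 0. The forebrain and limb lists also share the gene Sp8. The sum over 28 neural crest and facial mesenchyme regulators overlapped, at 245 to 286 and 251 to 287 FPKM, with a median of 0.01. The part of these levels in the lower values of the Dlx genes was not tested.

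Embryos labelled Dnmt3b-/- were also compared with Dnmt3bCI/CI, which differ in whether the protein is present. Msx1 was called higher with a 2-fold change, and Msx2, Dlx3 and Dlx4 were higher by the adjusted p alone, so that 4 of 10 genes passed against 9.70% of tested genes (1 of 10 against 1.10% with the fold threshold). Of all tested genes, 213 were called higher and 838 lower with a 2-fold change, or 330 and 495 after quantile normalization. These 4 genes also had no overlap between the genotypes, as did 16.7% of tested genes on the higher side. This contrast and the one against Dnmt3b+/+ share the embryos labelled Dnmt3b-/-, and the one of Dnmt3bCI/CI against Dnmt3b+/+ shares its embryos with both. The log2 fold changes of the 10 genes were all above 0 (40.8% of tested genes), from 0.42 to 1.26 with a median of 0.83, against a median of −0.08 over all tested genes (0.03 after quantile normalization).

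The largest difference belonged to Msx1, with a log2 fold change of 1.26 ± 0.23 (SE, adjusted p = 0.0056, limma). Msx2 differed by 0.86 ± 0.14 (SE, adjusted p = 0.0041, limma). Both passed in all 9 fits that left out an embryo, with ranges of 1.07 to 1.47 and 0.76 to 1.02. For Dlx3 the log2 fold change was 0.87 ± 0.20 (SE, adjusted p = 0.0154, limma), and 0.70 to 1.11 over all 9 fits. The adjusted p rose to at most 0.057 without embryo 2 or 3 labelled Dnmt3b-/- or without Dnmt3bCI/CI embryo 2. Dlx4 differed by 0.66 ± 0.18 (SE, adjusted p = 0.0263, limma). Its adjusted p exceeded 0.05, up to 0.0737, without any single embryo labelled Dnmt3b-/- or without Dnmt3bCI/CI embryo 3. Its log2 fold change ran from 0.48 to 0.75 over all 9 fits.

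Dlx6 missed the threshold, at 0.80 ± 0.27 (SE, adjusted p = 0.0539, limma), but passed under a filter of 1 FPKM, median-of-ratios scaling and quantile normalization, with adjusted p-values down to 0.0327. The other 5 genes also missed it, Dlx2 at 0.96 ± 0.45 (adjusted p = 0.139), Dlx1 at 0.75 ± 0.39 (adjusted p = 0.183), Dlx5 at 0.51 ± 0.27 (adjusted p = 0.182), Alx1 at 0.96 ± 0.64 (adjusted p = 0.285) and Alx4 at 0.42 ± 0.19 (adjusted p = 0.137). Without Dnmt3bCI/CI embryo 2, the values of Dlx2, Dlx1, Dlx5 and Alx1 were 0.41, 0.30, 0.31 and 0.25, and without embryo 3 labelled Dnmt3b-/- those of Dlx5 and Alx4 were 0.33 and 0.27. Without embryo 1 labelled Dnmt3b-/-, Dlx6 and Dlx5 passed by limma at 1.10 (adjusted p = 0.0039) and 0.83 (adjusted p = 0.0096), and 4 genes (Dlx3, Dlx6, Msx1 and Msx2) passed with a 2-fold change. Without Dnmt3b+/+ embryos 1 and 2 and Dnmt3bCI/CI embryos 2 and 3 together, the libraries with liver, heart or forebrain markers near 0, the values of Msx1 and Msx2 were 1.22 and 0.79 and none of the 10 genes passed, in a fit that left 1 embryo in each of those genotypes and that called 0 of all tested genes.

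**Figure D3:**
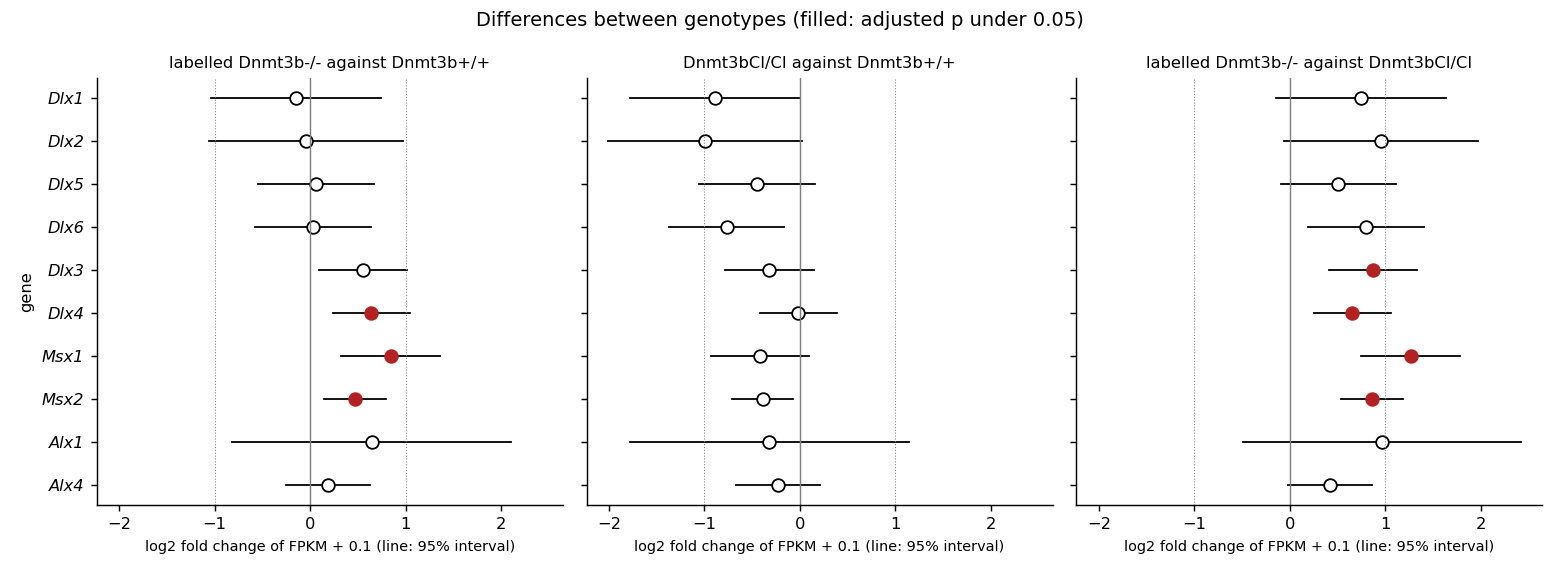
Log2 fold change of FPKM + 0.1 (horizontal axis) for each gene in the 3 comparisons, with its 95% interval as a line; filled points have an adjusted p under 0.05 and dotted lines mark a 2-fold change. Filled points are Dlx4, Msx1 and Msx2 on the left, none in the middle, and Dlx3, Dlx4, Msx1 and Msx2 on the right, where only Msx1, at 1.26, is filled and past the dotted line.

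Several of the genes share exon sequence with a neighbouring transcript. Dlx1as overlaps 335 of 5396 exon bases of Dlx1 on the opposite strand (6.21%), Dlx6os2 overlaps 104 of 2375 of Dlx6 (4.38%) and Dlx4os 79 of 3269 of Dlx4 (2.42%), while Gm17028 overlaps 243 of 5756 of Alx1 on its own strand (4.22%). Whether the counting used strand is not given in the sources used here, so reads in these stretches cannot be told apart. Over the 3 antisense or opposite-strand transcripts of the Dlx1-Dlx2 and Dlx5-Dlx6 pairs, the lowest embryo of each genotype was the one lowest for the coding genes, number 2 in Dnmt3b+/+ and Dnmt3bCI/CI and number 1 of those labelled Dnmt3b-/-. Dlx1as was at 4.81, 3.12 and 3.72 FPKM in Dnmt3b+/+, 2.34, 3.68 and 4.74 FPKM in embryos labelled Dnmt3b-/- and 2.80, 1.08 and 3.10 FPKM in Dnmt3bCI/CI. Dlx6os1, a long noncoding RNA of the intergenic enhancer region, was at 2.88, 1.46 and 1.84, then 0.795, 1.23 and 1.99, and then 1.43, 0.250 and 1.28 FPKM in the same order of genotypes. Dlx6os2 was at 1.17, 0.652 and 0.904, then 0.667, 0.921 and 1.35, and then 0.609, 0.222 and 0.615 FPKM. All Dnmt3bCI/CI embryos were below all Dnmt3b+/+ embryos for these 3 transcripts, at log2 fold changes of −0.82, −1.20 and −0.85, and none passed the adjusted p in any comparison.

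Dlx4os, on the strand opposite Dlx4, was at 0.269, 0.302 and 0.398 FPKM in Dnmt3b+/+, 0.422, 0.679 and 0.682 FPKM in embryos labelled Dnmt3b-/- and 0.281, 0.347 and 0.141 FPKM in Dnmt3bCI/CI. Embryos labelled Dnmt3b-/- were above the other 6 without overlap. Its log2 fold change was 0.70 ± 0.26 (SE, adjusted p = 0.0792, limma) against Dnmt3b+/+ and 0.98 ± 0.26 (SE, adjusted p = 0.0246, limma) against Dnmt3bCI/CI. Msx3, confined to the dorsal neural tube, ranged from 0.544 to 6.98 FPKM within the embryos labelled Dnmt3b-/- alone, where embryo 1 was the highest, and it did not pass in any comparison.

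**Figure D4:**
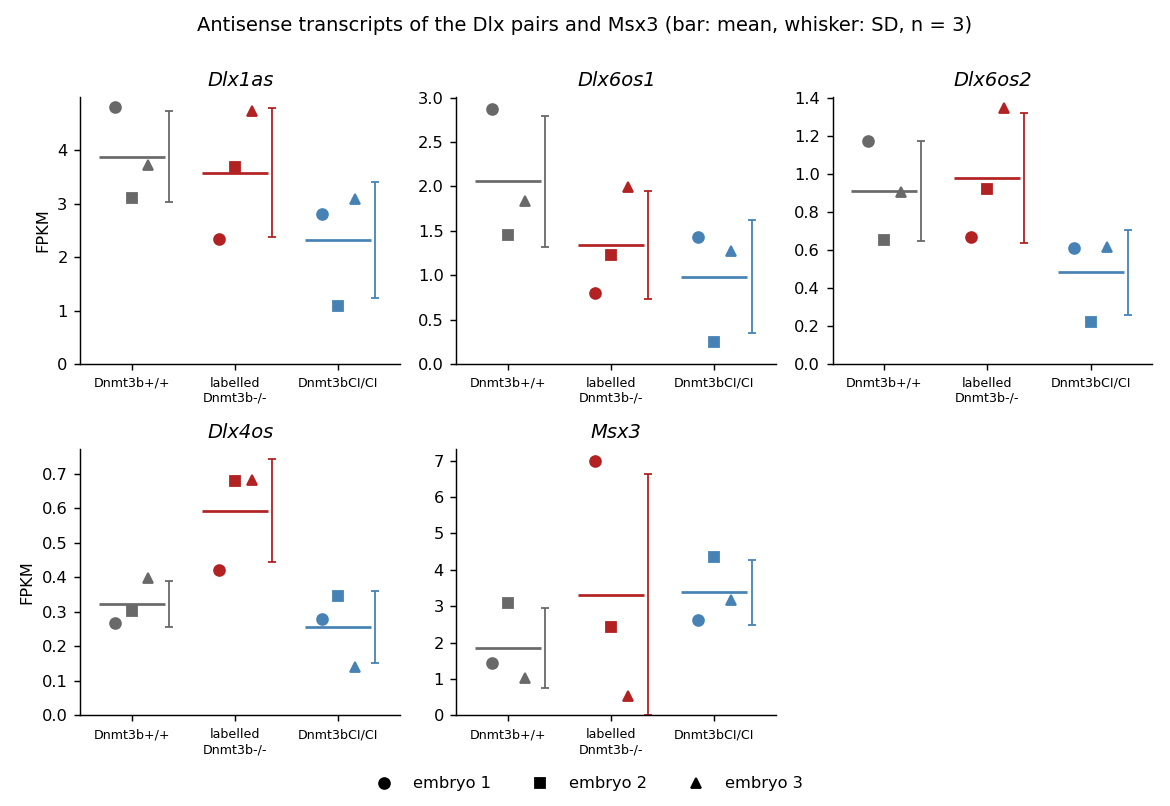
FPKM (vertical axes from 0, each with its own scale) of the 4 antisense or opposite-strand transcripts of the Dlx pairs and of Msx3 in 3 embryos of each genotype, with the mean as a bar and the SD as a whisker. Dnmt3bCI/CI embryos lie below Dnmt3b+/+ without overlap for Dlx1as, Dlx6os1 and Dlx6os2, and Msx3 spreads from 0.544 to 6.98 FPKM within the embryos labelled Dnmt3b-/-.

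The ratio between paralogues within an embryo does not depend on how libraries were scaled. Dlx1 was at 0.809 to 0.952 times the level of Dlx2 in Dnmt3b+/+, 0.691 to 0.855 times in embryos labelled Dnmt3b-/- and 0.810 to 1.06 times in Dnmt3bCI/CI, although Dlx2 ranged from 1.73 to 9.70 FPKM over the embryos. Dlx5 stood at 1.68 to 1.87 times Dlx6 in Dnmt3b+/+ and at 1.82 to 1.85 times in embryos labelled Dnmt3b-/-, but at 2.00, 2.20 and 2.72 times in the Dnmt3bCI/CI embryos. The log2 ratio of Dlx5 to Dlx6 was 1.19 ± 0.23 (SD) in Dnmt3bCI/CI and 0.84 ± 0.083 in Dnmt3b+/+, without overlap. Msx1 was at 3.88 to 5.36 times Msx2 in Dnmt3b+/+, 5.69 to 6.57 times in embryos labelled Dnmt3b-/-, again without overlap, and 3.58 to 5.99 times in Dnmt3bCI/CI. Dlx3 to Dlx4 ranged from 6.13 to 19.5, set largely by the few reads of Dlx4, and Alx1 to Alx4 from 0.104 to 0.469.

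Over the 5 pairs and 3 comparisons, 15 differences of log2 ratio were tested by two-sided exact permutation of 3 embryos against 3, where the smallest p possible is 0.1. Of these, 3 reached it: Dlx5/Dlx6 in Dnmt3bCI/CI against Dnmt3b+/+ (difference 0.35) and in embryos labelled Dnmt3b-/- against Dnmt3bCI/CI (−0.32), and Msx1/Msx2 in embryos labelled Dnmt3b-/- against Dnmt3b+/+ (0.37). The adjusted p was 0.5 for each, so none of the 15 differences is established by this design.

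**Figure D5:**
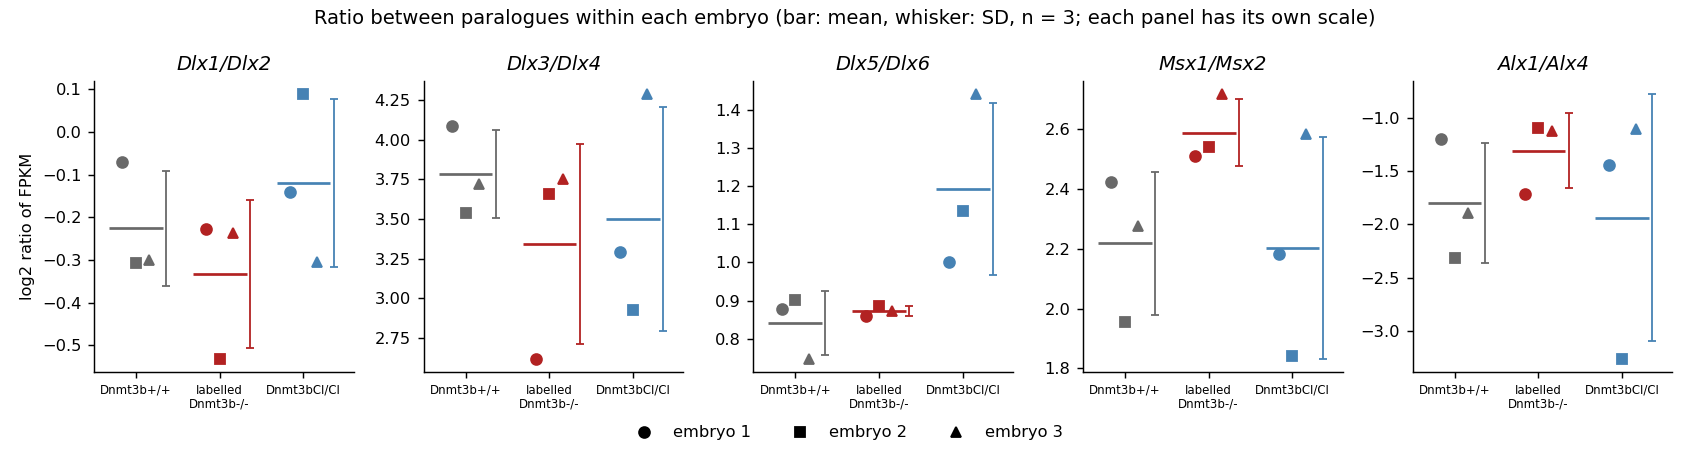
Log2 ratio of FPKM between the genes of each pair (vertical axes, each with its own scale) in 3 embryos of each genotype, with the mean as a bar and the SD as a whisker. The Dlx5/Dlx6 ratio of Dnmt3bCI/CI embryos, 1.19 on average, lies above both other genotypes without overlap, while the Dlx1/Dlx2 ratios of all genotypes overlap.

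Genes that act with the Dlx, Msx and Alx genes did not move in 1 direction in embryos labelled Dnmt3b-/- against Dnmt3b+/+, counted here by the adjusted p alone. Of all tested genes, 9.41% were higher and 16.4% lower by this rule. Of 9 genes of the endothelin axis of the lower jaw, 2 were higher (Gsc, a jaw target, at 0.63, and Barx1, a tooth and jaw gene, at 0.94) and 1 was lower (Mef2c, which acts downstream of the endothelin receptor, at −1.10, adjusted p = 0.0023, limma). Mef2c fell from 2.30, 1.95 and 2.41 FPKM to 1.25, 0.877 and 0.849 FPKM, and was at 2.57, 2.24 and 2.54 FPKM in Dnmt3bCI/CI. The list's median log2 fold change was 0.39, beside −0.07 over all tested genes. Of 28 neural crest and facial mesenchyme regulators, 2 were higher (Twist1 and Prrx2) and 3 lower (Osr2, Runx2 and Sox9), with a median of 0.12. Of 15 ventral forebrain and GABAergic genes, 0 were higher and 2 were lower (Gad2, which makes GABA, and Sp9), with a median of −0.10.

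Limb and ectoderm lists were counted in the same way, beside the same 9.41% higher and 16.4% lower of all tested genes. Among 13 tested genes of the apical ectodermal ridge and limb bud, 3 were higher and 1 lower, with a median of 0.07. Fgf8, the ridge and facial ectoderm signal, rose from 0.830, 0.372 and 0.642 FPKM in Dnmt3b+/+ to 1.06, 3.43 and 2.85 FPKM, a log2 fold change of 1.74 ± 0.40 (SE, adjusted p = 0.0163, limma). Shh, expressed in the zone of polarizing activity, ventral neural tube and facial epithelium, rose from 1.97, 1.66 and 2.22 FPKM to 4.29, 5.14 and 4.22 FPKM, at 1.18 ± 0.17 (SE, adjusted p = 0.0029, limma). Of 12 surface ectoderm genes, 0 were higher and 3 lower, the keratins Krt5, Krt14 and Krt15, of which Krt15 changed by −1.05 (adjusted p = 0.0024, limma), with a list median of 0.18.

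BMP signals are the best-known inducers of Msx1 and Msx2. Of 11 BMP ligands, receptors and targets, 5 were higher (Bmp4, Id1, Id2, Id3 and Smad7) and 2 lower (Bmp2 and Bmp5), against 9.41% and 16.4% of tested genes. The list's median was 0.19. Bmp4 was at 7.62, 6.27 and 8.24 FPKM in Dnmt3b+/+, at 9.53, 11.8 and 11.2 FPKM in embryos labelled Dnmt3b-/- and at 8.36, 8.36 and 9.07 FPKM in Dnmt3bCI/CI, a log2 fold change of 0.55 between the first pair of genotypes. Id2 was at 17.5 to 18.7 FPKM in embryos labelled Dnmt3b-/- and at no more than 12.5 FPKM in Dnmt3b+/+. Bmp2 went the other way, from 3.70, 3.42 and 4.13 FPKM to 1.66, 2.08 and 1.62 FPKM, at −1.03 (adjusted p = 0.0013, limma). The part of these genes in the levels of Msx1 and Msx2 was not tested. In Dnmt3bCI/CI against Dnmt3b+/+, none of the genes of these 6 lists or of the antisense and paralogue list passed.

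Marker lists of other tissues were counted in the same way, beside the 9.41% higher and 16.4% lower of all tested genes. In embryos labelled Dnmt3b-/- against Dnmt3b+/+, 2 of 7 erythroid genes were higher (Hbb-bh1 at 3.01 and Hba-x at 1.79), 1 of 7 hepatocyte genes was lower (Ttr at −2.19), 2 of 7 mesenchyme genes were higher (Prrx2 and Twist1) and 3 lower (Col1a1 at −1.23, Col3a1 and Pdgfra), and none of 7 heart muscle or 7 neuron genes passed. Ttr did not follow Alb in Dnmt3b+/+ embryo 2, at 35.5 FPKM where Alb was at 0.103 FPKM. The sum over the mesenchyme list was 257 to 274 FPKM in embryos labelled Dnmt3b-/-, below the 333 to 385 FPKM of Dnmt3b+/+. Most of that sum came from Col1a1 (mean 163 FPKM in Dnmt3b+/+, 69.2 in embryos labelled Dnmt3b-/-) and Col3a1 (91.7 and 52.2). Twist1 went the other way (60.3 and 91.0 FPKM), so the sum does not give the direction of the whole list. The sum over the neuron list was 152 to 287 against 188 to 365 FPKM. The part of these differences in the levels of Msx1, Msx2 and Dlx4 was not tested.

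As a description of shared pattern, all tested genes outside the group were ranked by Pearson's r, over the 9 embryos, with the mean standardised level of the 10 genes. The embryos share library and dissection for every gene, and no test is attached. The 10 genes most alike were AI606473, Lhx8, Gm14471, Kpna3, Pak2, Ikzf2, Gm38188, Pipox, Gucy1a2 and Nap1l1, with r from 0.982 to 0.963. Lhx8, a LIM homeobox gene of the ventral forebrain and facial mesenchyme, had 4.26, 2.64 and 2.79 FPKM in Dnmt3b+/+, 3.21, 5.82 and 5.94 FPKM in embryos labelled Dnmt3b-/- and 2.26, 1.45 and 2.68 FPKM in Dnmt3bCI/CI. Its r was 0.977.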

How the data were processed

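Total RNA of 9 whole embryos was sequenced by the authors as 150-base read pairs, aligned to mm10 with STAR after trimming, filtered on mapping quality and quantified with SeqMonk. The deposited table gives FPKM values, linear and without zeros (a gene without reads holds a floor worth 0.9 reads). Annotation and strandedness are not given in the sources used here. Genotypes came from the sample labels. Genes, gene lists and tests were chosen with earlier results of these data known.

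For the tests, limma 3.58.1 (R 4.3.3) was fitted to log2 values after adding 0.1 FPKM, with all 9 embryos in 1 model and the variance moderated along the mean. Genes entered if 3 or more embryos reached 0.1 FPKM. Benjamini-Hochberg adjustment ran over all 19397 genes, with thresholds of 0.05 and, where stated, a 2-fold change. P-values measure only the spread between these embryos. On simulated data of 19332 genes, 92.5% of 200 planted log2 changes of 2 were recovered. Whole reads (tolerance 0.05) were obtained with exon lengths of GENCODE M21. The authors' own DESeq2 test needs counts and was not repeated. Alternatives were other pseudocounts, filters, scalings and variance models, voom on whole reads, a replicate block and leaving out embryos.

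Genes named by rule were the 10 homeobox genes, listed antisense transcripts and paralogues, up to 4 called genes per list, and the 10 genes of most similar pattern. Other genes named from a list were chosen after their values were seen, and 1 listed gene is not reported here. The bisulfite libraries of the study were not analysed here. Python 3.11.15 was used for summaries.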

Additional observations from a re-analysis of the deposited data

How the results depend on the processing

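In embryos labelled Dnmt3b-/- against Dnmt3b+/+, the count of the 10 genes called with a 2-fold change was 0, and became 1 with voom on whole reads (Dlx4) and 3 with no fold threshold. It was 0 to 1 when any embryo was left out, the 1 being Msx1 without embryo 1 labelled Dnmt3b-/-. The count of 3 by the adjusted p alone became 1 without a filter on low values (Dlx4), 0 with the replicate block, 0 without Dnmt3b+/+ embryos 1 and 2 and Dnmt3bCI/CI embryos 2 and 3 together, and 0 to 3 when any embryo was left out: it was 0 without Dnmt3b+/+ embryo 2 or 3 or without embryo 2 or 3 labelled Dnmt3b-/-, and 1 without Dnmt3b+/+ embryo 1. Msx2 also lost its call in this comparison with only the embryos of both genotypes in the fit (adjusted p = 0.0974, limma) and with no variance trend (adjusted p = 0.0519, limma). In embryos labelled Dnmt3b-/- against Dnmt3bCI/CI, the 1 gene called with a 2-fold change became 2 with a pseudocount of 0.01 FPKM (with Dlx4), 2 after quantile normalization (with Dlx3), 2 with voom (with Dlx4), 4 with no fold threshold and 0 without the 4 libraries together, and 1 to 4 when any embryo was left out, with 4 without embryo 1 labelled Dnmt3b-/-. The count of 4 by the adjusted p alone became 0 without the 4 libraries together and 2 to 5 when any embryo was left out, with 2 (Msx1 and Msx2) without embryo 2 or 3 labelled Dnmt3b-/-. In Dnmt3bCI/CI against Dnmt3b+/+ the counts were 0 under every alternative run. The fit without the 4 libraries was chosen after seeing the data and leaves 1 embryo in each of 2 genotypes, assumed to vary like the others. The cause of these changes was not tested.

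Signs of single log2 fold changes turned for 6 genes. Against Dnmt3b+/+, embryos labelled Dnmt3b-/- gave 0.027 for Dlx2 under median-of-ratios scaling and −0.11 for Dlx6 without the 4 libraries, and leaving out any embryo gave −0.37 to 0.12 for Dlx1, −0.22 to 0.28 for Dlx2, −0.12 to 0.38 for Dlx5 and −0.15 to 0.34 for Dlx6. Dnmt3bCI/CI against Dnmt3b+/+ gave 0.10 for Dlx4 and 0.28 for Alx1 without the 4 libraries, and −0.12 to 0.16 for Dlx4 and −0.80 to 0.40 for Alx1 when any embryo was left out. These alternatives decide little about the paralogue ratios. A ratio within an embryo does not depend on library scaling. Leaving out an embryo moves the mean of its group by less than that group's SD, whatever the values.

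The labels number embryos 1 to 3 in each genotype and do not say that equal numbers belong together. Same-numbered embryos did not deviate together on average (mean r of −0.21, 0.0459 and −0.0955 for the 3 pairs of genotypes). With 3 embryos of each genotype, these correlations cannot show whether same-numbered embryos shared a litter or batch. With the replicate block, 0 of the 10 genes passed the adjusted p by limma in embryos labelled Dnmt3b-/- against Dnmt3b+/+ (Msx1 at 0.0575), and 3 against Dnmt3bCI/CI, without Dlx4 (adjusted p = 0.0567). Dlx4, at 9 to 37 reads per embryo, is limited by depth and was not tested under a filter of 1 FPKM.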
